A study of Mus musculus with 12 samples.

Results

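Acod1, the enzyme that makes itaconate, and 8 enzymes of or beside the tricarboxylic acid cycle were followed by RNA sequencing in activated macrophage-like cells. The 8 are called cycle enzymes below, although Idh1 acts in the cytosol and peroxisomes. The 9 genes were taken by symbol from a table of 49585 genes, and each symbol was found. They were Acod1 (ENSMUSG00000022126), Cs (ENSMUSG00000005683), Idh1 (ENSMUSG00000025950), Idh2 (ENSMUSG00000030541), Idh3a (ENSMUSG00000032279), Ogdh (ENSMUSG00000020456), Suclg1 (ENSMUSG00000052738), Fh1 (ENSMUSG00000026526) and Mdh2 (ENSMUSG00000019179). The unit is TPM (a length-corrected share of each library's transcripts), so levels of different genes can be compared within a library.

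The cells were RAW264.7, a mouse macrophage-like line made with Abelson leukemia virus. Every library came from cells given 10 ng/mL LPS, a bacterial ligand of Toll-like receptor 4, and 10 ng/mL mouse IFN-γ. The 4 groups were cells with 50 µM Mdivi-1 for 96 h, cells without Mdivi-1 for 96 h, cells with 50 µM Mdivi-1 for 24 h, and cells without Mdivi-1 for 24 h. Each group held 3 libraries. Mdivi-1 is a small molecule used to inhibit Drp1, the GTPase that divides mitochondria. Unstimulated cells were not analysed here, so induction by LPS and IFN-γ could not be measured. Whether cells without Mdivi-1 received a solvent is not stated in the labels.

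The tricarboxylic acid cycle burns acetyl groups in the mitochondrial matrix. Citrate synthase opens it, citrate becomes isocitrate by way of cis-aconitate, and the later steps return oxaloacetate. Macrophages stimulated with LPS and IFN-γ induce Acod1, which removes a carboxyl group from cis-aconitate and so draws carbon off the cycle as itaconate. Itaconate inhibits succinate dehydrogenase, and changes in isocitrate dehydrogenase and succinate oxidation are part of the metabolic remodelling described in such cells.

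The promoters of the members are shown first because Acod1 and the cycle enzymes differed in the letters at their start sites. RefSeq windows of 250 bases before to 50 bases after the start were matched by symbol for 8 of the 9 genes (all but Idh3a), giving 14 windows on GRCm38.p6, of which 6 overlapping or neighbouring windows belong to Ogdh and 2 to Idh1. Acod1 at chr14:103046762-103047061 (plus strand), Cs at chr10:128337477-128337776 (plus strand) and Mdh2 at chr5:135778399-135778698 (plus strand) are printed as the 3 genes of highest level in every group. Capitals mark matches, on either strand, to the motifs named after the sequences.
Acod1: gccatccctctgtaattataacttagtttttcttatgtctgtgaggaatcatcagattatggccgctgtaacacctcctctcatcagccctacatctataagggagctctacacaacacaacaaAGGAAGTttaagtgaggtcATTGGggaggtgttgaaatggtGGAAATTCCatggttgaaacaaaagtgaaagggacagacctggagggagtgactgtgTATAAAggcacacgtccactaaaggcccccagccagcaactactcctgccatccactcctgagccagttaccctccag
Cs: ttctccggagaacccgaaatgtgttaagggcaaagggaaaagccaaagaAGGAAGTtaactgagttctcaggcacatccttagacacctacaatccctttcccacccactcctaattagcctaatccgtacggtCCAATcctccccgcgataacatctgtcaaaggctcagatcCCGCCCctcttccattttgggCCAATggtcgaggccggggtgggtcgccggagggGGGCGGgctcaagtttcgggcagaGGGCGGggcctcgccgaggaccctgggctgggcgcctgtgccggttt
Mdh2: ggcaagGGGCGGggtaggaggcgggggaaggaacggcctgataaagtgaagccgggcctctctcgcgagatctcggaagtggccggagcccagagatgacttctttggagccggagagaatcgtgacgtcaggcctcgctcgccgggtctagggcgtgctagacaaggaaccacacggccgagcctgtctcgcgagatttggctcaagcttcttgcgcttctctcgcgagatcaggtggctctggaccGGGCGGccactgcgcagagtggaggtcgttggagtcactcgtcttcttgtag

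The Acod1 window was 47.0% G and C and held 2 CpG dinucleotides, whereas the 13 windows of the other 7 members held 49.3% to 72.3% and 11 to 37 CpG. The median of all 32851 promoters in the table was 52.7% and 7 CpG, and 28.4% of them were poorer in G and C than Acod1. A TATA box (TATAAA) began 28 bases before the Acod1 start and was found in no window of the other members, against 13.6% of all promoters. The GC box (GGGCGG), absent from the Acod1 window, was in 10 of the 14 windows and in 6 members (Cs, Fh1, Idh1, Idh2, Mdh2 and Ogdh), against 35.7% of all promoters. Acod1 also held the palindrome GGAAATTCC, a form of the site read by NF-kB, 85 bases before the start. That palindrome was in 104 promoters of the table (0.317%), and its letters were chosen after the Acod1 window had been seen. CCAAT was in Acod1 and 5 other members (37.4% of all promoters), and AGGAAGT, a core read by PU.1, in Acod1, Cs and Ogdh (9.35%). Each motif was searched on both strands, and a match describes letters only.

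The libraries differed in kind before any comparison of genes. Mitochondrial ribosomal RNA took 53.1% to 74.2% of TPM in the 6 libraries of 96 h and 3.37% to 4.56% in the 24 h libraries numbered 1 and 2. It took 90.8% and 91.6% in both 24 h libraries numbered 3, where the 9 genes stood at 0.0302 to 0.551 TPM with Mdivi-1 and at 0.227 to 0.371 TPM without it. Those 2 libraries were left out of the results below unless stated, which leaves 2 libraries per group at 24 h. A set of 1441 sensory receptor genes (olfactory, vomeronasal and trace amine families), which macrophages are not known to use, had a median of 0 TPM in the 24 h libraries numbered 1 and 2 but of 0.501 to 2.71 TPM at 96 h, with a 95th percentile of 1.22 to 6.58 TPM. Of 10 macrophage markers, the 9 found in the table summed to 269 to 413 TPM at 96 h and to 18363 to 20630 TPM at 24 h. None was at 0, but 5 to 9 of the 9 exceeded that 95th percentile in a 96 h library. Fibroblast markers summed to 75.1 and 54.7 TPM with Mdivi-1 and 263 and 287 TPM without it at 24 h, and to 2.66 to 12.04 TPM at 96 h, where 0 of 9 exceeded the receptor genes. Summed markers of B cells, T cells and epithelial cells each stayed at or under 0.380 TPM at 24 h. In bulk RNA, fewer cells of a type and less RNA per cell cannot be told apart.

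At 24 h Acod1 was the most abundant of the 9 genes by a wide margin, and the cycle enzymes stood in the same order with and without Mdivi-1. Acod1 was at 345 and 395 TPM with Mdivi-1 and at 520 and 551 TPM without it. It ranked 119 to 141 among 21734 protein-coding genes with Mdivi-1 and 90 to 101 without it. Mdh2, the mitochondrial malate dehydrogenase that closes the cycle, was at 91.0 and 83.3 TPM with Mdivi-1 and at 105 and 96.3 TPM without it. Cs, citrate synthase, was at 87.2 and 81.4 TPM with Mdivi-1 and at 97.3 and 94.7 TPM without it. The entry and the closing enzyme of the cycle were thus within overlapping ranges in both groups.

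The isocitrate dehydrogenases spanned a wide range. Idh1, the NADP-dependent enzyme of the cytosol and peroxisomes, was at 82.6 and 76.7 TPM with Mdivi-1 and at 84.0 and 83.4 TPM without it at 24 h. Idh2, its mitochondrial NADP-dependent counterpart, was at 24.6 and 23.0 TPM with Mdivi-1 and at 27.4 and 27.5 TPM without it. Idh3a, the catalytic subunit of the NAD-dependent enzyme that runs the cycle itself, was lowest of the 9 at 9.05 and 7.34 TPM with Mdivi-1 and 8.56 and 10.6 TPM without it. The transcript of the cytosolic enzyme therefore exceeded that of Idh2 by 3.36 and 3.34 times with Mdivi-1 and by 3.06 and 3.03 times without it. The regulatory subunits of the NAD-dependent enzyme were higher than Idh3a, with Idh3b at 41.6 and 40.7 TPM with Mdivi-1 and 42.7 and 42.5 TPM without it, and Idh3g at 22.4 and 20.4 TPM with Mdivi-1 and 24.2 TPM in both libraries without it.

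Among the members past isocitrate, Suclg1 and Fh1 were lowest and Mdh2 was highest. Ogdh, the first component of the 2-oxoglutarate dehydrogenase complex, was at 40.0 and 34.0 TPM with Mdivi-1 and at 41.9 and 42.5 TPM without it at 24 h. Its partner Dlst averaged 42.4 ± 4.40 TPM with Mdivi-1 and 50.9 ± 2.01 TPM without it, and the shared subunit Dld 45.2 ± 0.902 and 49.8 ± 1.83 TPM (SD, n = 2 each), so the 3 components of this complex were of like abundance. Suclg1, the alpha subunit of succinyl-CoA ligase, was at 16.4 and 12.9 TPM with Mdivi-1 and at 15.6 and 15.2 TPM without it. Its beta subunits were at 15.3 ± 0.124 TPM (Sucla2, forming ATP) and 4.07 ± 0.276 TPM (Suclg2, forming GTP) with Mdivi-1, and at 16.5 ± 1.85 and 5.46 ± 0.160 TPM without it. Fh1, fumarate hydratase, was at 10.4 and 10.1 TPM with Mdivi-1 and at 12.9 and 11.6 TPM without it. The order at 24 h was Acod1, Mdh2, Cs, Idh1, Ogdh, Idh2, Suclg1, Fh1 and Idh3a in both groups. Ranges of neighbours overlapped between Mdh2 and Cs in both groups and between Cs and Idh1 in the Mdivi-1 group, and did not overlap elsewhere in that order.

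**Figure D1:**
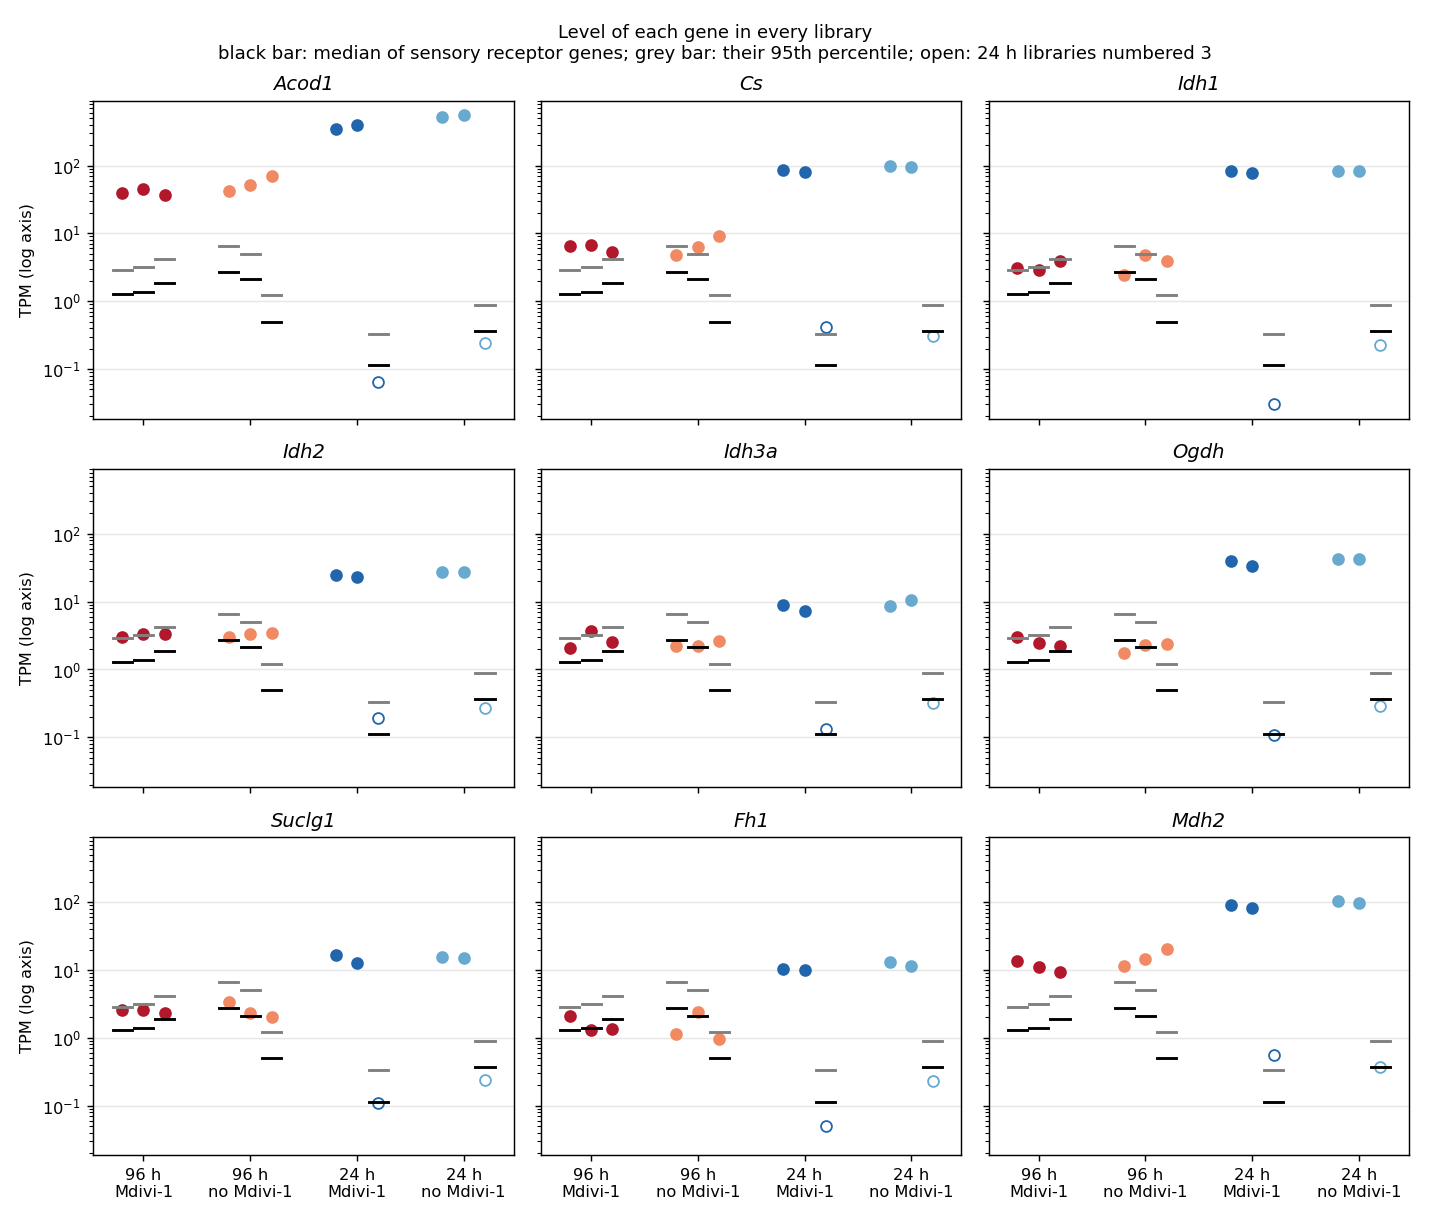
TPM on a log axis of each of the 9 genes in every library, by group, with filled points for the 10 libraries compared and open points for the 24 h libraries numbered 3. Black and grey bars give the median and 95th percentile of 1441 sensory receptor genes in that library (both 0, and not drawn, in the other 24 h libraries); Acod1 and Mdh2 stood above the grey bar in all 6 libraries of 96 h and Fh1 in none.

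With Mdivi-1 at 24 h, no member passed the test (limma, adjusted p under 0.05 over 19631 genes), against 0.295% of all genes called. The lowest adjusted p was that of Acod1, whose log2 fold change was -0.54 ± 0.20 (SE; 0.690-fold; limma unadjusted p = 0.0237, adjusted p = 0.609). Acod1 averaged 370 ± 35.4 TPM with Mdivi-1 and 536 ± 21.9 TPM without it (SD, n = 2 each), and the groups did not overlap. The other 8 enzymes had log2 fold changes of -0.24 to -0.07, all with a limma adjusted p of 1. Fh1 was at -0.24 ± 0.28, Mdh2 at -0.21 ± 0.23, Idh2 at -0.20 ± 0.14 and Idh1 at -0.07 ± 0.22. At an unadjusted p under 0.05 there was 1 member, Acod1, and there were 1205 genes in all. The 95% interval of the Acod1 change ran from -0.98 to -0.09 and that of Cs from -0.67 to 0.30, so changes of this size in the cycle enzymes could not be told from 0 with these libraries.

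All 9 estimates at 24 h were negative, and 7 members (Idh1, Fh1, Mdh2, Idh2, Cs, Ogdh and Acod1) had both Mdivi-1 libraries under both libraries without it, where 40.4% of all genes did so. The median log2 fold change was -0.20 for the 9 genes and -0.06 for all genes tested. Nuclear protein-coding genes took 41.4% and 38.5% of TPM with Mdivi-1 and 45.0% and 45.2% without it. After median-of-ratios scaling, which sets the median gene equal between libraries, the 8 cycle enzymes turned to 0.08 to 0.27 while Acod1 stayed negative at -0.18. With only the 4 libraries of 24 h in the fit, which also tested fewer genes (11105), Acod1 was called lower at the same -0.54 (limma, adjusted p = 0.00144), where 2350 genes were called lower and 74 higher; the cause of the call was not tested. The fibroblast markers given above were lower with Mdivi-1 in the same libraries, and their part in these values was not tested.

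At 96 h Acod1 was again first, followed by Mdh2 and Cs, and the lower end of the order was no longer resolved. Acod1 was at 39.9, 45.3 and 36.8 TPM with Mdivi-1 and at 41.8, 52.2 and 69.9 TPM without it. Mdh2 was at 13.8, 11.2 and 9.37 TPM with Mdivi-1 and at 11.4, 14.6 and 20.5 TPM without it. Cs was at 6.46, 6.74 and 5.39 TPM with Mdivi-1 and at 4.81, 6.25 and 9.11 TPM without it. For each of these 3 genes the groups overlapped, and the third library without Mdivi-1 was highest. That library also stood apart in other ways, with 74.2% mitochondrial ribosomal RNA and a receptor median of 0.501 TPM, against 53.1% to 64.2% and 1.28 to 2.71 TPM in the other 5 libraries of 96 h.

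The remaining 6 members lay close to the receptor genes at 96 h. Idh1 was at 3.05, 2.87 and 3.95 TPM with Mdivi-1 and at 2.45, 4.82 and 3.87 TPM without it. Idh2 was at 3.06, 3.32 and 3.33 TPM with Mdivi-1 and at 3.002, 3.33 and 3.44 TPM without it. Both isocitrate dehydrogenases were now of similar level, with Idh1 at 0.998, 0.865 and 1.19 times Idh2 with Mdivi-1 and 0.817, 1.45 and 1.13 times without it. Idh3a was at 2.10, 3.70 and 2.55 TPM with Mdivi-1 and at 2.20, 2.21 and 2.63 TPM without it. Ogdh was at 3.05, 2.45 and 2.19 TPM with Mdivi-1 and at 1.78, 2.29 and 2.36 TPM without it. Suclg1 spanned 2.30 to 2.55 TPM with Mdivi-1 and 2.06 to 3.37 TPM without it, and Fh1 spanned 1.31 to 2.09 and 0.949 to 2.41 TPM. Counted against the 95th percentile of the receptor genes of the same library, Acod1 and Mdh2 were above it in 6 of 6 libraries and Cs in 5. Idh2 was above it in 3, Idh1, Idh3a and Ogdh in 2, Suclg1 in 1 and Fh1 in 0. In the order of levels, the ranges of Acod1, Mdh2 and Cs were separate in both groups. Below Cs, neighbours overlapped, except that with Mdivi-1 Cs was separate from Idh1 and Suclg1 from Fh1. By library, 6, 5 and 3 members were above it with Mdivi-1, and 2, 3 and 8 without it.

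With Mdivi-1 at 96 h, no member passed the test either (limma, adjusted p under 0.05), against 0.143% of all genes called. Acod1 had a log2 fold change of -0.39 ± 0.16 (0.762-fold; unadjusted p = 0.0383, adjusted p = 0.792), with 40.7 ± 4.32 TPM with Mdivi-1 and 54.7 ± 14.2 TPM without it (SD, n = 3 each). Mdh2 had -0.39 ± 0.19 (adjusted p = 0.962), with 11.45 ± 2.20 TPM with Mdivi-1 and 15.5 ± 4.61 TPM without it. The other 7 enzymes lay between -0.11 for Idh1 and 0.18 for Ogdh, each with an adjusted p of 1. At an unadjusted p under 0.05 there was 1 member, Acod1, beside 1117 genes in all. No member had groups that did not overlap in either direction, where 4.05% of all genes were lower and 2.13% higher in every Mdivi-1 library. When the third library without Mdivi-1 was left out, the Acod1 value was -0.20 and that of Mdh2 -0.18, and when the first was left out they were -0.56 and -0.57.

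A difference between the Mdivi-1 effects at both times was tested directly. No member was called (limma, adjusted p under 0.05), against 0.122% of all genes, and none of the 9 had an unadjusted p under 0.05, against 868 genes. For Acod1 the effect at 96 h minus that at 24 h was 0.14 ± 0.26 (limma, adjusted p = 1; 95% interval -0.43 to 0.72). For the 9 genes it spanned -0.18 to 0.37, with a median of 0.14 beside 0.09 for all genes.

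**Figure D2:**
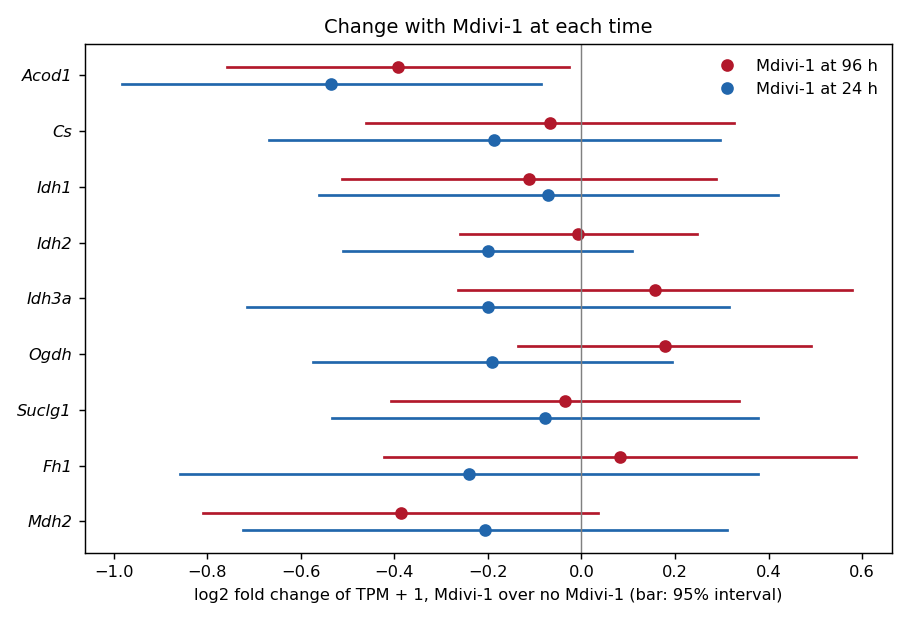
Log2 fold change of TPM + 1, Mdivi-1 over no Mdivi-1, of each gene at 96 h (red) and 24 h (blue), with 95% intervals from limma (10 libraries). Only the Acod1 intervals lie wholly under 0 (-0.76 to -0.03 at 96 h and -0.98 to -0.09 at 24 h); neither passed the adjusted test.

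Acod1 was also set against the cycle enzymes of the same library, a ratio that does not depend on what share of the library is ribosomal. The summed TPM of the 8 enzymes was 36.1, 34.2 and 30.5 with Mdivi-1 and 30.2, 38.3 and 44.9 without it at 96 h. At 24 h it was 361 and 329 with Mdivi-1 and 393 and 382 without it. Acod1 alone thus had about as much transcript as the 8 enzymes together, or more. The ratio of Acod1 to that sum was 1.11, 1.33 and 1.21 with Mdivi-1 and 1.39, 1.37 and 1.56 without it at 96 h. At 24 h it was 0.955 and 1.20 with Mdivi-1 and 1.32 and 1.44 without it. At each time the libraries with Mdivi-1 were all lower than those without it. After the receptor median of each library was subtracted, the 96 h values became 1.495, 1.89 and 2.19 with Mdivi-1 and 3.32, 2.35 and 1.70 without it. The groups then overlapped, and the third library without Mdivi-1 was the lowest of its group. At 24 h the subtraction changed nothing, since the median was 0. These ratios are given without a test.

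**Figure D3:**
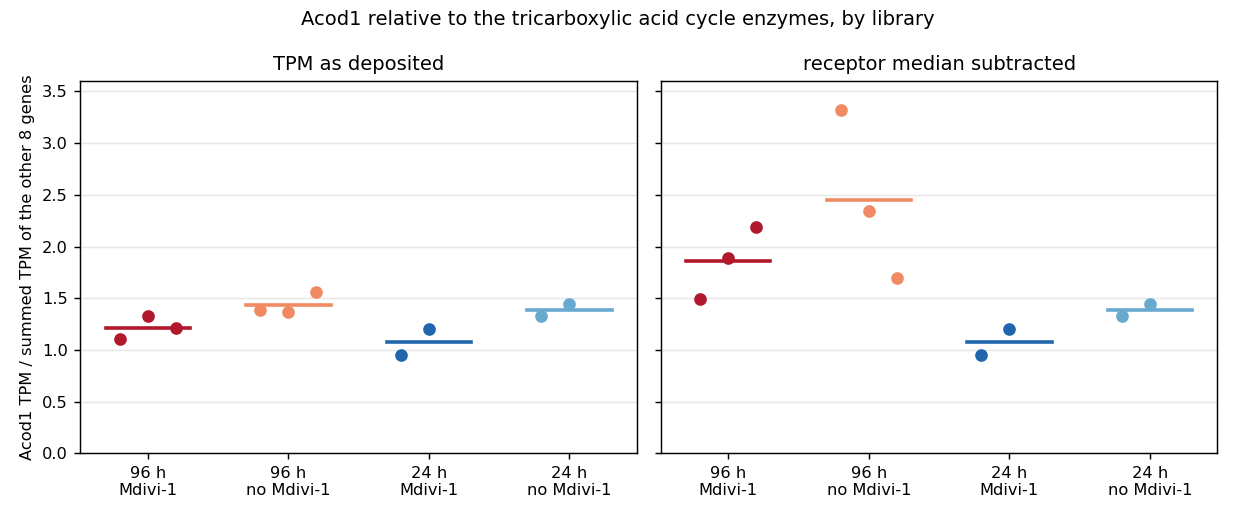
Acod1 TPM over the summed TPM of the other 8 genes in each library, from TPM as deposited (left) and after subtraction of the receptor median (right); points are libraries and lines are group means. As deposited, the means were 1.21 with Mdivi-1 and 1.44 without it at 96 h, and 1.08 with Mdivi-1 and 1.38 without it at 24 h.

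At 96 h against 24 h, all 9 genes fell in TPM with and without Mdivi-1, although other scalings turned Idh3a (with Mdivi-1) and Mdh2 (without it), as given below. With Mdivi-1, 9 of 9 were called lower (limma, adjusted p under 0.05), against 44% of all genes called lower, and without it 9 of 9, against 46.9%. The median log2 fold change of the 9 genes was -2.84 with Mdivi-1 and -2.74 without it, beside -0.12 and -0.41 for all genes tested. Most genes of such a level fell likewise. Of 5813 genes averaging at least 5 TPM, which include all 9, 5121 were called lower with Mdivi-1 and 5170 without it. Their median changes were -2.43 and -2.58. The mean was taken over the same 10 libraries, so a gene could pass on its 24 h level alone. That leans this set towards a fall, and its counts serve as a description. Time cannot be told apart from the change in the kind of library, since every 96 h library was rich in mitochondrial ribosomal RNA.

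Acod1 averaged 40.7 ± 4.32 TPM at 96 h (SD, n = 3) and 370 ± 35.4 TPM at 24 h (SD, n = 2) with Mdivi-1, a log2 fold change of -3.16 ± 0.18 (limma, adjusted p = 9.81e-08). Without Mdivi-1 it averaged 54.7 ± 14.2 TPM at 96 h and 536 ± 21.9 TPM at 24 h, a change of -3.30 ± 0.18 (adjusted p = 6.23e-08). Idh1 had the most negative change of the 9 in both comparisons, at -4.24 ± 0.20 with Mdivi-1 and -4.20 ± 0.20 without it (adjusted p = 2.29e-08 and 2.20e-08). Cs, at -3.57 ± 0.20 and -3.69 ± 0.20, and Ogdh, at -3.42 ± 0.16 and -3.79 ± 0.16, followed. Mdh2 was at -2.84 ± 0.21 with Mdivi-1 and -2.66 ± 0.21 without it, and Idh2 at -2.55 ± 0.13 and -2.74 ± 0.13. The genes of lowest level at 24 h had the smallest changes. Suclg1 was at -2.17 ± 0.19 and -2.21 ± 0.19, Fh1 at -2.13 ± 0.25 and -2.45 ± 0.25, and Idh3a at -1.30 ± 0.21 and -1.65 ± 0.21, with and without Mdivi-1. On the log2(TPM + 1) scale, changes of genes near 1 TPM are understated, and most 96 h values of these genes were within the range of the receptor genes.

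The fall depended on the scaling for part of the genes. Median-of-ratios scaling was set on genes above 0 in every library compared. It moved the median change of the 24433 genes tested to 1.37 with Mdivi-1 and 1.30 without it. Genes called were then 13283 higher and 4567 lower with Mdivi-1 and 12864 higher and 4163 lower without it, against 6938 and 8642, and 7128 and 9214, from TPM as deposited. The members then had medians of -1.20 and -0.96, with 8 called lower with Mdivi-1 and 7 without it. Acod1 was at -1.47 (limma, adjusted p = 0.0111) with Mdivi-1 and -1.34 (adjusted p = 0.0181) without it. Idh3a was at 0.09 with Mdivi-1 under that scaling and was not called. When the receptor median was also subtracted, 5 members were called lower with Mdivi-1 and 6 without it, Acod1 was at -0.42 (adjusted p = 0.0121) and -0.30 (adjusted p = 0.0425), and Mdh2 turned to 0.12 without Mdivi-1. Acod1, Cs, Idh1, Ogdh and Fh1 were called lower in both comparisons under all 3 scalings. Fh1, however, was above the receptor median in only 3 of 6 libraries of 96 h, and its remaining 96 h values became 0 on subtraction. With the 24 h libraries numbered 3 put back, 0 members were called in either comparison.

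**Figure D4:**
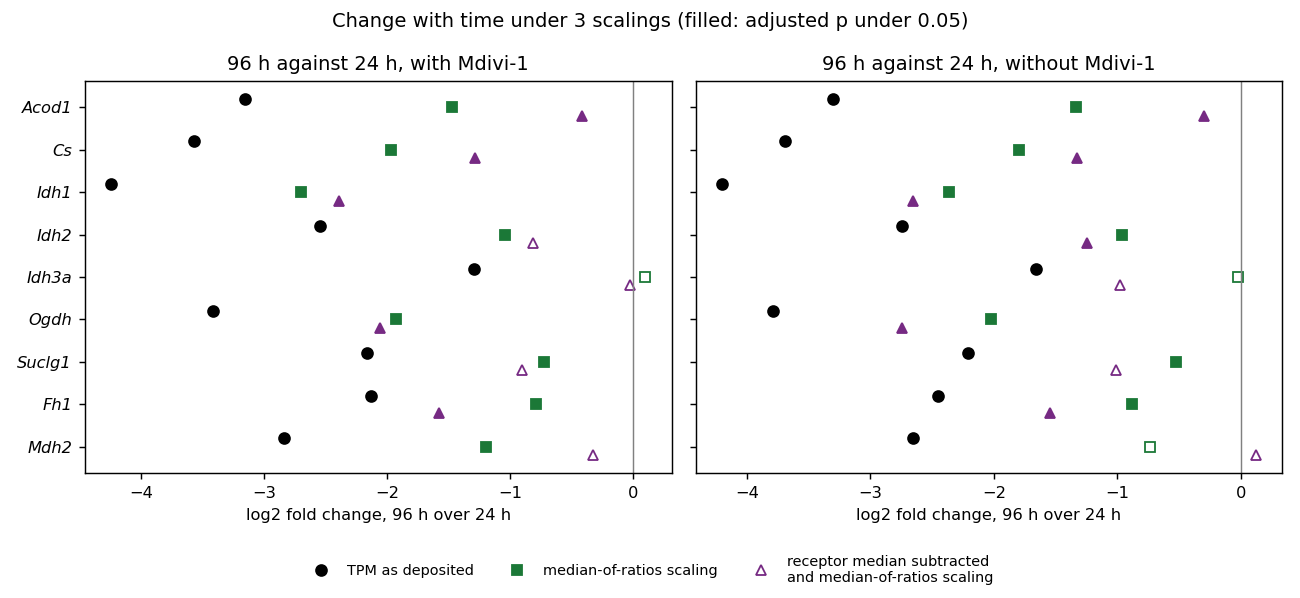
Log2 fold change at 96 h over 24 h of each gene with (left) and without (right) Mdivi-1 under 3 scalings; filled symbols have a limma adjusted p under 0.05. From TPM as deposited all 9 genes were called lower, whereas after background subtraction and scaling Idh1 and Ogdh lay furthest under 0 and Acod1 was at -0.42 and -0.30.

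Ranks within a library give the same data without any scaling. Acod1 ranked 164 to 181 among 21734 protein-coding genes with Mdivi-1 and 123 to 154 without it at 96 h, against 119 to 141 and 90 to 101 at 24 h. Mdh2 ranked 543 to 754 with Mdivi-1 and 425 to 643 without it at 96 h, against 641 to 658 and 617 to 675 at 24 h. These 2 genes therefore kept a place near the top of the transcriptome while their TPM was lower. Cs ranked 1142 to 1450 with Mdivi-1 and 918 to 2211 without it at 96 h, and 668 to 689 in the 4 libraries of 24 h. Idh1 ranked 2154 to 3114 with Mdivi-1 and 1934 to 7460 without it at 96 h, and 713 to 793 at 24 h. Ogdh ranked 2666 to 5533 with Mdivi-1 and 3169 to 11171 without it at 96 h, and 1460 to 1576 at 24 h. Idh3a ranked 2291 to 4302 with Mdivi-1 at 96 h, nearer the top than its 5197 to 5851 at 24 h, although its TPM was lower. Without Mdivi-1 its 96 h ranks of 2901 to 8693 overlapped those of 24 h. Idh1, Ogdh and Idh3a were each above the receptor 95th percentile in only 2 of 6 libraries of 96 h. Their 96 h ranks were therefore mostly set near that background.

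**Figure D5:**
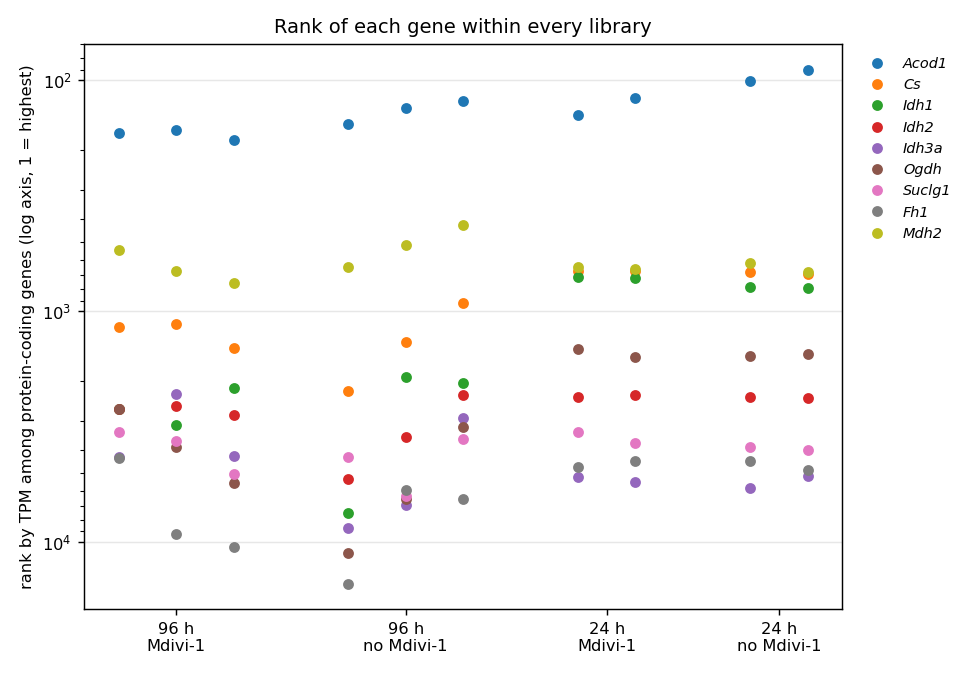
Rank of each gene by TPM among 21734 protein-coding genes in each of 10 libraries, on a log axis with rank 1 at the top, by group. Acod1 stayed between ranks 90 and 181 and Mdh2 between 425 and 754 in all 10 libraries, while Idh1 and Ogdh ranked lower at 96 h than at 24 h.

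Of 31 further genes of the cycle, of pyruvate entry and of carboxylate transport, 29 were tested. With Mdivi-1 at 24 h, at 96 h and for the difference none was called (limma), against 0.295%, 0.143% and 0.122% of all genes. At an unadjusted p under 0.05 there were 3, 3 and 2 of the 29, beside 1205, 1117 and 868 of all 19631 genes tested. In TPM as deposited, at 96 h against 24 h, 27 of 29 were called lower with Mdivi-1, against 44% of all genes, and 29 of 29 without it, against 46.9%, and none was called higher. After median-of-ratios scaling 20 of 30 tested were called lower and 3 higher with Mdivi-1, and 18 lower and 2 higher without it, where 18.7% and 17% of all genes were called lower. With the receptor median subtracted as well, 16 of 24 tested were called lower with Mdivi-1 and 17 of 24 without it, and none higher, where 25.4% and 26.1% of all genes were called lower. The values below are from TPM as deposited. With Mdivi-1 the 2 not called were Pdhx, a subunit of pyruvate dehydrogenase, at -0.63 ± 0.27 (limma, adjusted p = 0.0513), and Me1, cytosolic malic enzyme, at 0.33 ± 0.28 (adjusted p = 0.290). The most negative change was that of Sdhd, a membrane anchor of succinate dehydrogenase, at -4.96 ± 0.18 with Mdivi-1 and -4.60 ± 0.18 without it. Sdha, the flavoprotein of that complex, was at -4.03 ± 0.25 and -4.39 ± 0.25, and the carriers Slc25a11 (oxoglutarate) and Slc25a10 (dicarboxylates) at -4.08 ± 0.23 and -4.18 ± 0.23, and at -3.84 ± 0.20 and -4.12 ± 0.20. The cytosolic malate dehydrogenase Mdh1 was at -3.99 ± 0.16 with Mdivi-1, and the cytosolic aconitase Aco1 at -3.94 ± 0.21 without it. Group means of Sdhd, Sdha, Slc25a11, Slc25a10, Mdh1 and Aco1 at 96 h were 0.766 to 4.05 TPM. The receptor genes had medians of 0.501 to 2.71 TPM and 95th percentiles of 1.22 to 6.58 TPM there, so the 96 h levels of these genes were near that background.

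Sdha, part of the enzyme that itaconate inhibits, was at 2.83 ± 0.725 TPM with Mdivi-1 and 2.23 ± 1.04 TPM without it at 96 h (SD, n = 3 each), and at 60.9 ± 3.09 TPM with Mdivi-1 and 64.5 ± 0.486 TPM without it at 24 h (SD, n = 2 each). Its 96 h levels were near those of the receptor genes.

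Factors known to act on Acod1 were also read. Irf1, the interferon-induced factor needed for Acod1 induction, was at 0.686, 0.560 and 0.500 TPM with Mdivi-1 and 0.366, 1.08 and 0.578 TPM without it at 96 h. At 24 h it was at 26.4 and 26.7 TPM with Mdivi-1 and 33.0 and 33.4 TPM without it. Nfkb1, whose product dimerizes with that of Rela at NF-kB sites, was at 17.2 and 15.3 TPM with Mdivi-1 and 23.7 and 24.5 TPM without it at 24 h (-0.54 ± 0.16; limma, adjusted p = 0.338). None of Irf1, Nfkb1, Rela and Tfeb was called with Mdivi-1 at 24 h or 96 h, where 0.295% and 0.143% of all genes were called. All 4 were called lower in TPM at 96 h against 24 h with Mdivi-1, against 44% of all genes, and without it, against 46.9%. Nfkb1, however, turned under other scalings. At 96 h Irf1 and Tfeb lay under the receptor median of their library in 5 of 6 libraries, and Rela in 3. Nfkb1 lay over the 95th percentile of the receptor genes in all 6, and its change of -1.10 with Mdivi-1 and -1.61 without it was 0.45 and 0.22 after median-of-ratios scaling (limma, adjusted p = 0.183 and 0.513). With background subtraction as well it was called higher, at 1.098 and 0.81 (adjusted p = 0.00143 and 0.00647).

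Likeness to Acod1 was measured by Pearson's r of log2(TPM + 1) over the 10 libraries, among 5812 other genes with a mean of at least 5 TPM. The 5 most alike were Tpm3, Bnip2, Hnrnpu, Gtf2f1 and Ifi211, each at r = 0.997. Ifi211, an interferon-induced gene, was at 29.8, 32.2 and 27.9 TPM with Mdivi-1 and 31.3, 39.3 and 53.6 TPM without it at 96 h. At 24 h it was at 350 and 348 TPM with Mdivi-1 and 388 and 408 TPM without it, so that its level, too, was close to that of Acod1. Among the members, Mdh2 was most like Acod1 (r = 0.993, rank 162), followed by Cs (0.993, rank 168), Idh2 (0.989) and Idh1 (0.985). Fh1 was least alike, at r = 0.961. All points share the split between 96 h and 24 h libraries, so r is high for most genes of this level and serves as a description.

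Gene copies or overlapping neighbours were listed for 3 members. Csl, a near-identical copy of Cs, stood at 0.976 to 2.73 TPM at 96 h and at no more than 0.0791 TPM at 24 h. Cs itself was at 4.81 to 9.11 TPM at 96 h and at 81.4 to 97.3 TPM at 24 h. How reads were divided between Cs and Csl is not known. Kmo, on the strand opposite to Fh1, reached 2.92 TPM at 96 h and 0.0673 TPM at 24 h, a level like that of Fh1 at 96 h. The receptor genes had medians of 0.501 to 2.71 TPM and 95th percentiles of 1.22 to 6.58 TPM in the 96 h libraries. Levels like those of Csl and Kmo were thus also reached by these genes, and a split of reads was not tested. The predicted gene Gm45203 at Idh2 and the small RNA Gm23182 at Cs were listed at 0 in these libraries.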

How the data were processed

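TPM values of 49585 genes in 12 RAW264.7 libraries were used as the authors deposited them, and 0 columns were left unmapped. Per the labels' protocols, RNA was taken in TRIZOL and 100 ng per sample was depleted of ribosomal RNA and made into strand-specific NEBNext libraries. Which aligner, counting tool and annotation were used is not given in the sources used here. Per the submitters' processing notes the build was hg19, a human build, whereas 49326 identifiers (99.5%) are those of mouse GENCODE release M21. Each library sums to 1000000 TPM, so depth is unknown and no counting interval is given.

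The members and gene lists were chosen with earlier results of these data known. Values were log2(TPM + 1), fitted for genes averaging at least 1 TPM by limma-trend (R 4.3.3, limma 3.58.1) over 10 libraries of 4 groups (19631 genes, 6 residual degrees of freedom). The 24 h libraries numbered 3 were left out because they hold almost no messenger RNA. P-values were adjusted by Benjamini-Hochberg over all genes tested, with calls at 0.05, and limma fold changes carry their SE. Separate cultures are not stated for the libraries of a group, and p-values therefore reflect the spread among these samples alone. Alternatives were all 12 libraries, pseudocounts of 0.1 and 5, no filter or a filter at 5 TPM, median-of-ratios scaling, subtraction of the receptor median with that scaling, the replicate number as a block, the compared groups alone, and each library left out in turn. The scaling rested on genes above 0 in all 10 libraries, which were 13560 as deposited and 3599 after subtraction.

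Named genes were the 9 members, at most 6 other pathway genes called in a comparison by size of change, the partners of complexes that hold a member, Sdha, and the 5 genes most like Acod1. The Acod1 regulators, Csl and the overlapping genes lie outside this rule. Some genes and motifs that the lists or the rule would name are not reported here. Python 3.11.15, pandas 2.3.3, numpy 2.4.6 and matplotlib 3.10.9 made tables and plots.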

Additional observations from a re-analysis of the deposited data

How the results depend on the processing

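With Mdivi-1, the count of members called was 0 at both times and for the difference in every alternative run except the fit of the 24 h libraries alone, which called 1 (Acod1). That fit has 2 residual degrees of freedom, and the cause of the call was not tested. For 96 h against 24 h, 9 members were called with and 9 without Mdivi-1 under both other pseudocounts, both other filters, the compared groups alone and every left-out library. With all 12 libraries 0 and 0 were called, and Acod1 had -0.34 and -0.38. Median-of-ratios scaling gave 8 and 7 and background subtraction with it gave 5 and 6, and the cause was not tested.

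Median-of-ratios scaling reversed the sign with Mdivi-1 at 24 h for Cs (0.16), Idh1 (0.27), Idh2 (0.13), Idh3a (0.10), Ogdh (0.15), Suclg1 (0.23), Fh1 (0.076) and Mdh2 (0.14), at 96 h for Idh2 (0.049) and Suclg1 (0.029), for the Acod1 difference (-0.13), and for Idh3a at 96 h against 24 h with Mdivi-1 (0.094). With background subtraction as well, it did so at 24 h for Cs (0.064), Idh1 (0.17), Idh2 (0.041), Idh3a (0.021), Ogdh (0.054), Suclg1 (0.14) and Mdh2 (0.044). At 96 h it did so for Cs (0.11), Idh1 (0.43), Idh2 (0.47), Suclg1 (0.24) and Fh1 (-0.040), and also for the Acod1 difference (-0.12) and for Mdh2 at 96 h against 24 h without Mdivi-1 (0.12). None of these reversed values passed the test.

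Leaving out 1 library at a time gave -0.24 to 0.083 for Suclg1 with Mdivi-1 at 24 h. At 96 h it gave -0.25 to 0.15 for Cs, -0.32 to 0.056 for Idh1, -0.050 to 0.024 for Idh2, -0.011 to 0.29 for Idh3a, -0.14 to 0.12 for Suclg1, -0.076 to 0.33 for Fh1, 0.082 to 0.25 for Ogdh, -0.57 to -0.18 for Mdh2 and -0.56 to -0.20 for Acod1. Acod1 at 24 h spanned -0.63 to -0.44 and its difference -0.030 to 0.33. The ratio of Acod1 to the other 8 genes, as a group mean, spanned 1.16 to 1.27 with Mdivi-1 and 1.38 to 1.47 without it at 96 h, and 0.955 to 1.20 and 1.32 to 1.44 at 24 h. With all 12 libraries the 24 h means were 0.732 with Mdivi-1 and 0.958 without it, and with the receptor median subtracted the 96 h means were 1.86 and 2.45.

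Deviations of same-numbered libraries correlated at -0.110, -0.0205 and -0.240 at 96 h. At 24 h, 2 libraries per group cannot decide pairing (-0.0227), and over all 12 both numbered 3 correlated at 0.980. The replicate block left 0, 0, 0, 9 and 9 members called. It called 9 genes lower at 24 h, and 4 higher and 1 lower at 96 h. The Acod1 limma adjusted p was 0.732 at 24 h and 0.844 at 96 h.

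Counts over all genes moved more than those of members. With Mdivi-1 at 24 h, 0 genes were called higher and 58 lower. That count was 0 with 12 libraries, median-of-ratios scaling or any 24 h library left out, and 1 after background subtraction. It was 1 higher and 25 lower with a pseudocount of 0.1, 3 and 408 with 5, 1 and 31 with no filter, 74 and 2350 from the 24 h libraries alone, and 1 and 161 or 3 and 353 without library 1 or 3 of the 96 h group without Mdivi-1. At 96 h, 20 were called higher and 8 lower, but 10 and 7 with a pseudocount of 5, 36 and 10 with no filter, 31 and 20 with a filter at 5 TPM, and 0 from the 96 h libraries alone. Leaving out a library gave between 3 higher and 1 lower (either 24 h library without Mdivi-1) and 144 higher and 662 lower (library 3 of the 96 h group without Mdivi-1). For the difference, 22 were called higher and 2 lower, but 0 with 12 libraries or without any 24 h library, 143 and 5 with a pseudocount of 5, 11 and 2 with no filter, 2 and 1 after median-of-ratios scaling, 1 and 0 with background subtraction, 6 and 0 with the replicate block, 9 and 0 without library 1 or 2 of the 96 h Mdivi-1 group, and 57 and 27 without library 3 of the 96 h group without it. At 96 h against 24 h, a filter at 5 TPM gave 548 higher and 5121 lower with Mdivi-1 and 534 and 5170 without it, 12 libraries gave 5579 and 36, and 4936 and 67, and background subtraction gave 2894 and 3178, and 2995 and 3261.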
